A study of Mus musculus with 15 samples.

Results

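Sox9-GFP+ cells of the mouse pancreas were compared between the postnatal stage p23 and the embryonic stage e15.5, with 3 gene expression arrays at each age, which are 6 of the 15 arrays of the series. The arrays were chosen by their titles. The e15.5 cells came from embryos of Sox9-EGFP males and CD1 wild-type females, and the p23 cells from pancreata of Sox9-EGFP pups. Both carried the Sox9-EGFP transgene, which makes cells fluoresce where the Sox9 reporter is active, and in both the brightest GFP cells were sorted by flow cytometry after dissociation with collagenase B and, where needed, trypsin. RNA was amplified with the NuGEN Ovation system before hybridisation, and the protocols name no gate against leukocytes or dead cells. The GFP- cells of the p23 Sox9-EGFP pancreas, also on 3 arrays, served to mark what differed between the p23 sorts, and no GFP- group of e15.5 was analysed here. Several animals were pooled for each sort, so n = 3 counts arrays of pooled cells. A p-value measured a difference against the spread between arrays within all 5 groups of the series. Cells of high GFP signal are those with an active reporter, and the labels name no marker that would separate duct cells from progenitors or from other cells with GFP.

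Sox9 is a transcription factor of the progenitor epithelium of the embryonic pancreas. In the embryo, Sox9-expressing cells of the branching trunk epithelium give rise to duct cells and, through a brief pulse of Neurog3, to endocrine cells, while acinar cells form at the tips of the branches. After birth, Sox9 is kept in duct cells and the centroacinar cells at the ends of the ducts, which secrete bicarbonate-rich fluid and carry the digestive enzymes made by acinar cells to the gut.

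Levels are given as log2(intensity + 16) for 1 probe set per gene. A change is the mean level at p23 minus that at e15.5, and a sort difference is the mean level of Sox9-GFP+ minus GFP- cells at p23. Each is followed by its standard error, and adjusted p-values are those of limma with the Benjamini-Hochberg adjustment over the 16883 genes tested. The fit shared a variance per gene over all 5 groups. Standard errors and p-values thus also carry the spread of groups not compared, and can differ from the spread of the arrays printed. With 3 arrays against 3, an exact rank test cannot go below a p of 0.1, so calls rest on the limma fit. Both comparisons use the same p23 Sox9-GFP+ arrays, so an error in those arrays enters both. The median level of the whole table was 7.67, and the filter on low values lay at a level of 6.83. Of the 220 genes named by rule, 73 had all arrays of one age below 6.83, and the size of their change depends on the offset of 16. In the 3 groups, arrays of a group correlated at 0.966 to 0.995, and the array medians of the whole series lay between intensities of 165.5 and 211.7. Among the other groups that share the fit, Sox9-GFP+ arrays of e10.5 correlated at 0.969 to 0.988. The Ngn3-GFP+ arrays of e15.5 correlated least, at 0.933 to 0.952. In sorted bulk samples, fewer cells of a type and less RNA per cell cannot be told apart.

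Sox9 itself was at 12.14, 12.10 and 12.11 at e15.5 and 11.62, 11.94 and 12.10 at p23. The ages overlapped, and the change of -0.23 ± 0.32 did not pass the test (adjusted p = 0.549). GFP- cells were at 10.08, 9.81 and 8.68, below every Sox9-GFP+ array of that age, with a sort difference of 2.37 ± 0.32 (adjusted p = 3.45e-05). The gene whose reporter was sorted thus lay apart between the p23 sorts, while the ages overlapped.

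The marker lists showed what else the sorts held. The mean level of 28 duct genes was 9.72 to 9.99 in the e15.5 arrays, 10.95 to 11 at p23 and 8.77 to 9.12 in GFP- cells. Endocrine markers, a list of 20, averaged 10.98 to 11.69 at e15.5 and 7.48 to 8.42 at p23, so the e15.5 sort carried the RNA of the endocrine lineage. Acinar markers, a list of 24, averaged 8.34 to 9.93 at e15.5, 12.99 to 13.19 at p23 and 13.45 to 13.56 in GFP- cells, and the p23 Sox9-GFP+ sort was thus not free of acinar RNA.

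Leukocyte markers set the GFP- group apart from the acinar and endocrine cells that the series' design text names for it. Their summed intensity over 25 genes was 99300 to 151000 in GFP- cells, 6260 to 10300 in p23 Sox9-GFP+ cells and 2410 to 2540 at e15.5. Ptprc, the common leukocyte antigen CD45, was at 14.28, 14.41 and 14.64 among GFP- arrays, at 8.12, 10.64 and 10.09 among p23 Sox9-GFP+ arrays, and at 6.60, 6.49 and 6.56 at e15.5. The p23 Sox9-GFP+ arrays 2 and 3 were thus well above array 1. A gene lower in Sox9-GFP+ than in GFP- cells can be a leukocyte gene, and the list counts that moved by over 1.5 times and by more than 1 gene with p23 arrays 2 and 3 left out are given beside the lists.

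**Figure D1:**
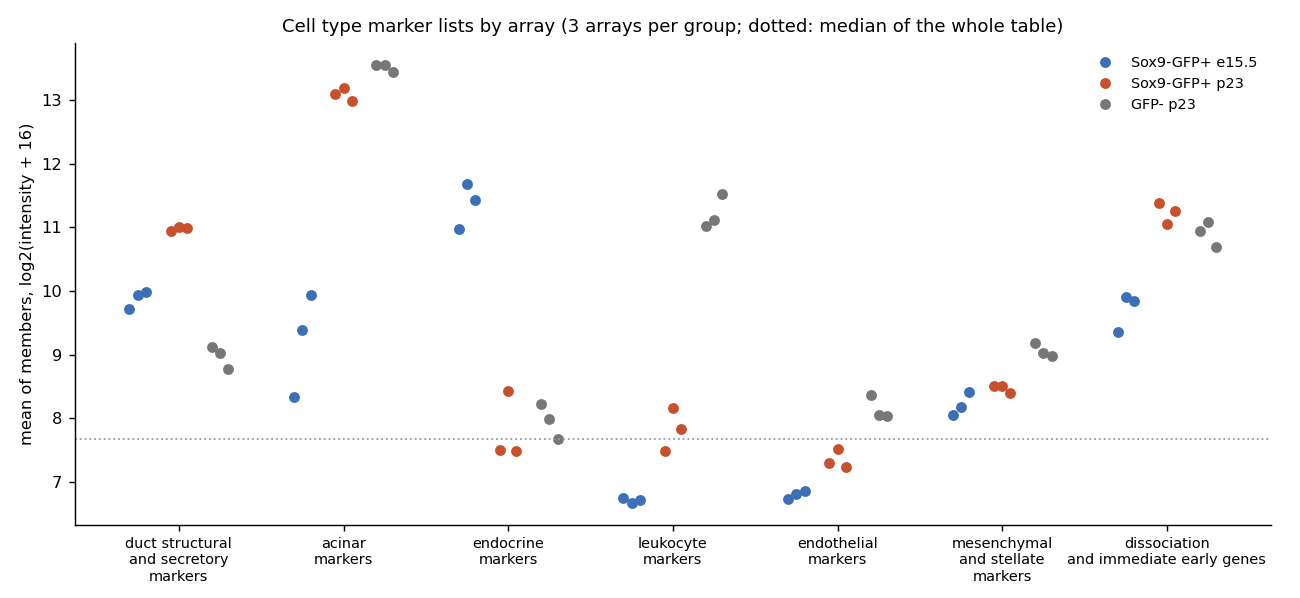
Mean level, log2(intensity + 16), of the tested members of 7 marker lists in each array of Sox9-GFP+ cells at e15.5 (blue), Sox9-GFP+ cells at p23 (red) and GFP- cells at p23 (grey), with 3 arrays per group and the median of the whole table as a dotted line. Duct markers were highest in the p23 Sox9-GFP+ arrays (10.95 to 11), endocrine markers in the e15.5 arrays, and leukocyte markers in the GFP- arrays (11.02 to 11.52).

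From e15.5 to p23, 9714 of the 16883 tested genes passed the test, or 57.5%. Of all genes, 5184 (30.7%) were higher and 4530 (26.8%) lower at p23, with a median change of 0.05. Changes of at least 2-fold were fewer and leaned to falls, with 825 genes (4.89%) higher and 1370 (8.11%) lower. The 3 and 3 arrays did not overlap for 72.7% of genes. Between the p23 sorts, 3622 genes (21.5%) were higher and 2455 (14.5%) lower in Sox9-GFP+ than in GFP- cells. The counts of each list below, by age and between the sorts, are to be read beside these shares of all genes. When each array was centred on the median, the split by age turned to 3561 higher and 5484 lower, and the median of all genes moved to -0.11, so the direction of a list with a median near 0 depends on the scaling. With p23 Sox9-GFP+ arrays 2 and 3 left out, 3817 genes were higher and 3945 lower.

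The genes of the mature duct rose. Of 28 duct structural and secretory markers tested, out of 30 listed, 17 rose, 1 fell and 10 did not pass, with a median change of 0.85 against 0.05 over all genes, and 23 of them were higher than in GFP- cells. Cftr, the chloride and bicarbonate channel of the duct lumen, was at 5.78, 6.32 and 6.77 at e15.5 and 10.25, 9.38 and 10.32 at p23. The ages did not overlap, the change was 3.69 ± 0.40 (adjusted p = 6.23e-06), and GFP- cells at 5.88, 5.64 and 5.74 were as low as the embryonic cells. Pkhd1, which encodes the ciliary protein fibrocystin, went from 8.61, 8.98 and 8.92 to 11.79, 11.57 and 11.18, a change of 2.67 ± 0.31 (adjusted p = 1.25e-05). Every p23 value lay above every e15.5 value. Among the others that rose were the cytosolic carbonic anhydrase Car2 by 2.28 ± 0.27 and the annexin Anxa5 by 1.88 ± 0.22. The keratins parted within this list: Krt19 rose by 1.96 ± 0.22, while Krt7, singled out after its value was seen as the one member that fell, went from 11.52, 11.64 and 11.57 to 10.59, 11.12 and 10.90, a change of -0.71 ± 0.19 (adjusted p = 0.00657). Both remained far above GFP- cells, with sort differences of 2.88 ± 0.22 and 3.45 ± 0.19.

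Ion channels and transporters of epithelia gave 17 rises, 7 falls and 14 members that did not pass among 38 tested, with a median change of 0.37, and 18 were higher and 3 lower than in GFP- cells. Of the 17 rises, 5 stayed under the table median at both ages. With p23 arrays 2 and 3 left out, 11 rose and 3 fell. Kcne3, a subunit that keeps potassium channels of the basolateral membrane open, had levels of 6.0, 6.55 and 6.63 at e15.5 and 8.42, 9.08 and 11.27 at p23. Array 3 at p23 lay more than 2 log2 units above the others, and the change was 3.20 ± 0.67 (adjusted p = 0.0015). The membrane carbonic anhydrase Car4 rose by 2.86 ± 0.25 and the calcium-activated potassium channel Kcnn4 by 2.53 ± 0.23. Among channels named after their values were seen, smaller rises were those of the calcium-activated chloride channel Ano1 by 1.48 ± 0.32, the osmosensitive cation channel Trpv4 by 0.98 ± 0.16 and the background potassium channel Kcnk5 by 0.99 ± 0.28, the last of which lost its call with p23 arrays 2 and 3 left out (adjusted p = 0.104). Against these, the carbonic anhydrase Car9, a gene induced by low oxygen, went from 9.12, 9.75 and 9.90 to 6.91, 7.49 and 7.41. This was a change of -2.32 ± 0.23 (adjusted p = 2.47e-06), and the p23 values were as low as those of GFP- cells, with a sort difference of 0.16 ± 0.23 that did not pass.

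The apical glucose transporter Slc5a1 was among the leading genes that rose with age and were also higher than in GFP- cells. It was at 6.51, 6.82 and 6.71 at e15.5, 11.03, 11.24 and 11.30 at p23, and 7.46, 6.96 and 7.11 in GFP- cells. The change was 4.51 ± 0.14 and the sort difference 4.01 ± 0.14. There were 1263 genes called higher in both comparisons. Ranked by the smaller of the 2 differences, the 10 at the top were Ankrd1, Snorc, Slc5a1, Cftr, the GABA receptor subunit Gabrp, the caspase Casp12, the epithelial surface protein Plet1, the annexin Anxa13, the adhesion receptor Adgrf1 and Efhb. Snorc, a small transmembrane proteoglycan known from cartilage, went from 7.27, 7.46 and 7.45 to 12.25, 12.53 and 12.71, with GFP- cells at 8.01, 7.63 and 8.05. Casp12 went from 5.28, 5.68 and 5.51, below the median of the table, to 10.58, 10.43 and 10.71. In all 10 the p23 Sox9-GFP+ arrays lay above those of both other groups, which follows largely from how the 10 were chosen. By age, the arrays did not overlap for 72.7% of all genes. The sort difference of Gabrp lost its call when p23 arrays 2 and 3 were left out (adjusted p = 0.0511).

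**Figure D2:**
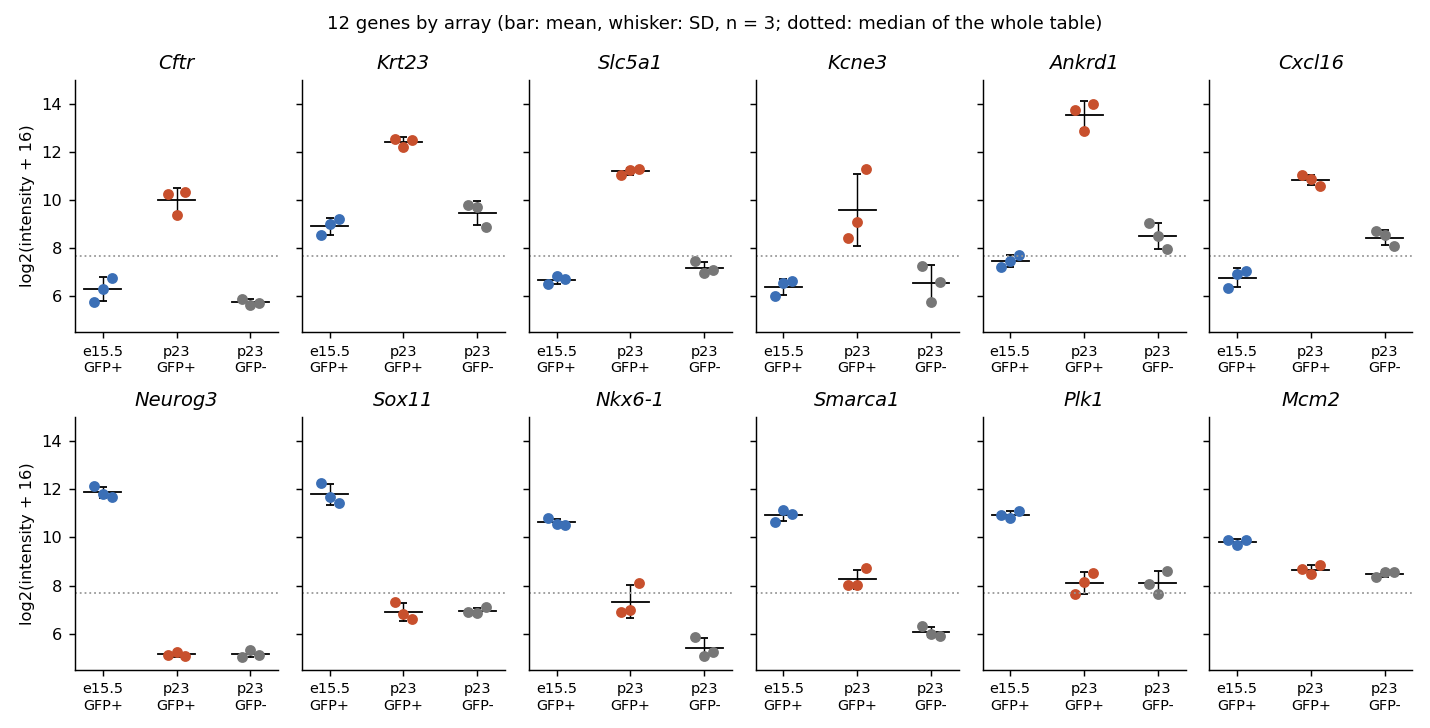
Level, log2(intensity + 16), of 12 genes in each array of Sox9-GFP+ cells at e15.5 (blue), Sox9-GFP+ cells at p23 (red) and GFP- cells at p23 (grey), with bars for the mean and whiskers for the SD of 3 arrays and the table median dotted. The 6 genes in the upper row were higher in every p23 Sox9-GFP+ array than in every e15.5 array, and the 6 in the lower row were lower. Of all tested genes, 72.7% did not overlap between the ages.

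The structural genes of a simple epithelium rose with the duct markers. Of 18 keratin and desmosome genes, 13 rose and 1, Krt7, fell, with a median of 0.71, and 13 were higher and 1 lower than in GFP- cells. Krt23 went from 8.53, 9.01 and 9.21 to 12.55, 12.19 and 12.49, a change of 3.49 ± 0.53 (adjusted p = 0.000135). The desmosome linkers Dsp and Ppl rose by 1.29 ± 0.17 and 1.07 ± 0.13 and the keratin Krt18 by 1.13 ± 0.19. Tight junction and polarity genes were more mixed, with 13 rises, 5 falls and 9 that did not pass among 27 tested and a median of 0.43. Here 18 were higher and 1 lower than in GFP- cells. The cation- and water-permeable claudin Cldn2 went from 7.37, 8.08 and 8.2 to 9.91, 10.47 and 10.51, a change of 2.41 ± 0.37 (adjusted p = 0.000142). Claudins Cldn8 and Cldn23 rose by 1.85 ± 0.38 and 1.36 ± 0.25, and the junctional adhesion receptor Cxadr by 1.75 ± 0.37. The junctional adhesion molecule Jam3 fell by 1.99 ± 0.19, and Cldn6, named after its value was seen, fell by 0.67 ± 0.18.

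Laminin chains moved in both directions in the basement membrane list, where 18 of 31 tested genes rose, 6 fell and 7 did not pass, with a median of 0.49. Lama1, the alpha chain of embryonic laminin, was at 9.67, 9.46 and 9.33 at e15.5 and 7.63, 7.64 and 7.41 at p23, a change of -1.92 ± 0.14 (adjusted p = 9.23e-08). The partner chain Lamb1 fell by 1.51 ± 0.18, and Lama5, named after its value was seen, by 0.62 ± 0.13. In the other direction, Lama4 went from 7.45, 8.31 and 8.58 to 11.02, 10.84 and 10.97 and Lama3 from 6.31, 6.21 and 6.21 to 8.02, 8.2 and 7.85, changes of 2.83 ± 0.30 and 1.78 ± 0.11. None of these 5 chains overlapped between the ages, which held for 72.7% of all genes. The integrin chain Itgb8, which activates latent TGF-beta, rose by 2.51 ± 0.37, and with Lama4 it was also higher than in GFP- cells, by 3.95 ± 0.37 and 2.49 ± 0.30. Over the list, 19 genes were higher and 1 lower than in GFP- cells.

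Proteases and their inhibitors gave 8 rises and 7 falls among 23 tested, with a median of 0.25, beside rises of 30.7% and falls of 26.8% over all genes. With p23 arrays 2 and 3 left out there were 7 rises and 3 falls. Between the p23 sorts, 10 were higher and 4 lower than in GFP- cells. The largest rise was that of Plaur, the receptor of urokinase, from 6.02, 6.14 and 6.60 to 10.99, 11.06 and 10.13. GFP- cells were at 10.48, 10.22 and 10.90, and the sort difference of 0.20 ± 0.27 did not pass. Its ligand Plau rose by 1.24 ± 0.25. The metalloproteinase inhibitors Timp3 and Timp2 rose by 3.44 ± 0.35 and 1.95 ± 0.19 and the membrane serine protease Tmprss2 by 1.43 ± 0.18, and these 3 were higher than in GFP- cells.

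Mucosal secreted proteins gave 13 rises, 3 falls and 10 that did not pass among 26 tested, with a median of 0.56, and 1 fall with p23 arrays 2 and 3 left out. Of the 5 with the largest changes, the polymeric immunoglobulin receptor Pigr and the fucosyltransferase Fut2 were higher than in GFP- cells and the others were not called so. Pigr, which carries antibodies across epithelia, went from 6.30, 5.95 and 6.11 to 9.47, 10.05 and 10.46, a change of 3.87 ± 0.22 and a sort difference of 2.47 ± 0.22. The scavenger protein Dmbt1 and the trefoil factor Tff2 rose by 6.94 ± 0.37 and 5.19 ± 0.32 but were no higher than in GFP- cells, with sort differences of -0.47 ± 0.37 and -0.85 ± 0.32 that did not pass. The glycosyltransferase Galnt3 rose by 2.50 ± 0.29. Over the list, 6 genes were higher and 3 lower than in GFP- cells, near the shares of 21.5% and 14.5% over all genes. Wfdc2, a whey acidic protein family member named after its value was seen, went from 11.64, 11.31 and 11.38 to 10.08, 10.66 and 10.92, with GFP- cells at 6.60, 6.66 and 6.52. Its fall of 0.89 ± 0.25 lost its call without p23 array 1 (adjusted p = 0.0528).

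Most of the 15 largest rises were genes of exocrine secretion. Of 24 acinar markers tested, out of 29 listed, 22 rose and 2 did not pass, with a median of 4.2. Reg2, a secreted lectin of the regenerating family, was at 4.75, 4.87 and 5.26 at e15.5, 13.22, 13.17 and 12.90 at p23, and 13.49, 13.54 and 13.39 in GFP- cells. Its change was 8.13 ± 0.15, with all e15.5 arrays below the filter level, and 9.10 at an offset of 1 and 6.79 at an offset of 64. Its sort difference of -0.38 ± 0.15 did not pass. Reg3a, Reg3b, Reg3g and Reg3d rose by 7.45 ± 0.15, 7.20 ± 0.15, 6.29 ± 0.24 and 5.86 ± 0.22 and were lower than in GFP- cells, with sort differences of -2.03 to -0.89. The family members are similar in sequence, and whether their probe sets respond to each other's transcripts was not tested. The zymogen granule proteins Gp2, Zg16 and Cuzd1 rose by 7.10 ± 0.19, 6.72 ± 0.72 and 6.65 ± 0.30 and the proteases Try4 and Ctrl by 6.16 ± 0.91 and 5.99 ± 0.31. Try4 at e15.5 was 4.71, 4.96 and 9.91, so array 3 stood apart. No acinar marker was higher and 3, Prss3, Gp2 and Cuzd1, were lower than in GFP- cells. The calls of Gp2 and Cuzd1 between the sorts were lost after quantile normalization (adjusted p = 0.431 and 0.196), at an offset of 1 and with any 1 p23 array left out, and that of Prss3, named after its value was seen, without p23 array 3 (adjusted p = 0.0543) or without GFP- array 1 or 2 (adjusted p = 0.0599 and 0.0627). The summed intensity of the list was 31000 to 56100 at e15.5, 204000 to 233000 at p23 and 273000 to 293000 in GFP- cells. Whether this RNA came from acinar cells in the sort, from free RNA or from duct cells was not tested. Wfdc18, another whey acidic protein gene, rose by a similar amount and was also higher than in GFP- cells. It went from 5.40, 6.66 and 6.41 to 12.19, 12.22 and 12.44, with GFP- cells at 9.48, 9.12 and 8.91.

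Growth of organs is restrained by the Hippo kinases, which keep the coactivators Yap1 and Wwtr1 from the TEAD transcription factors. Of 29 genes of this pathway and its targets, 14 rose, 3 fell and 12 did not pass, with a median of 0.34, and 13 of the 14 rises were also higher than in GFP- cells. Among all genes 30.7% rose and 26.8% fell, and 1263 of the 5184 rises were also higher than in GFP- cells. Ankrd1, a much used target of Yap1, was at 7.21, 7.48 and 7.73 at e15.5, 13.75, 12.86 and 14.00 at p23, and 9.06, 8.49 and 7.95 in GFP- cells. It had the largest change among the 10 genes ranked above, at 6.06 ± 0.29 (adjusted p = 1.88e-09), with a sort difference of 5.03 ± 0.29. The matricellular protein Ccn1 went from 11.29, 11.53 and 11.58 to 13.31, 13.11 and 13.36. Neither gene overlapped between the ages, as was so for 72.7% of all genes. Tgfb2, Frmd6 and the tissue factor gene F3 rose by 2.59 ± 0.20, 2.04 ± 0.21 and 1.72 ± 0.22. Of the regulators, named after their values were seen, Wwtr1 rose by 1.15 ± 0.16, Yap1 changed by 0.05 ± 0.25 without passing, with a sign that turned when arrays were centred on their median, and Tead2 fell by 1.21 ± 0.20. Ankrd1 and Ccn1 are also known to respond to mechanical strain and to tissue dissociation. In the same arrays 27 of 33 dissociation and immediate early genes rose, against 30.7% of all genes. Whether dissociation had a part in the rises of Ankrd1 and Ccn1 was not tested.

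The promoters of Ankrd1 and Ccn1 are shown because both hold the M-CAT element CATTCC, the letters that TEAD factors are known to bind. Each window runs from 250 bases before to 50 after the RefSeq start in GRCm38.p6, in the direction of the gene, with the element in capitals on either strand (CATTCC or GGAATG). Ankrd1 lies on the minus strand at chr19:36119795-36120094 and Ccn1 on the minus strand at chr3:145649936-145650235.
Ankrd1: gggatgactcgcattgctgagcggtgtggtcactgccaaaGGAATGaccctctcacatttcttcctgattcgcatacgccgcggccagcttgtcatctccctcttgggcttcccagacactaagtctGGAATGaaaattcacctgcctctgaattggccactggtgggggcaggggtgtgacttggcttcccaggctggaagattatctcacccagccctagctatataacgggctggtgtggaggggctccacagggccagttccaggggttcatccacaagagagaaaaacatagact
Ccn1: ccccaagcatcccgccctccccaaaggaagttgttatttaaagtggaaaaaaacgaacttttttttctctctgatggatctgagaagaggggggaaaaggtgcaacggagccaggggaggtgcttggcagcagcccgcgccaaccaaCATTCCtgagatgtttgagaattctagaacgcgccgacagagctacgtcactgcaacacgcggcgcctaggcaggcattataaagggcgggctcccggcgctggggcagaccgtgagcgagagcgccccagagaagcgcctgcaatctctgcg
The element was found in 17 of 31 promoters of 26 matched pathway genes, or 54.8%, against 12.7% of the promoters of tested genes and 14.7% of all promoters. The windows of Tgfb2, Frmd6 and F3 held no match. The list was assembled partly from known targets of TEAD factors, and a match describes letters only.

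The ligands Tgfb2 and Tgfb3 rose while Id1, Id3 and Id4, targets of BMP signals, fell. Of other targets of these signals, named after their values were seen, Id2 changed by 0.11 ± 0.18 without passing, with a sign that turned when arrays were centred on their median, the inhibitor Smad6 rose by 0.71 ± 0.12, and the inhibitor Smad7 rose by 0.54 ± 0.19, a call lost after centring (adjusted p = 0.106), without p23 array 1 or 2 and without e15.5 array 2 or 3. Of 49 TGF-beta and BMP pathway genes tested, 23 rose, 12 fell and 14 did not pass, with a median of 0.26, which became 13 and 13 when arrays were centred on their median and 15 and 13 with p23 arrays 2 and 3 left out. Tgfb3 went from 7.31, 8.15 and 8.01 to 10.73, 11.29 and 11.07, with GFP- cells at 9.21, 8.89 and 8.82. This was a change of 3.21 ± 0.25 (adjusted p = 3.16e-07), and the p23 Sox9-GFP+ arrays lay above both other groups. Id3 went from 9.47, 8.83 and 8.82 to 6.91, 6.55 and 6.43, a change of -2.41 ± 0.38, with GFP- cells at 8.62, 8.71 and 8.60. Id4 fell by 2.18 ± 0.23, and Id1, named after its value was seen, by 2.01 ± 0.28. The ligand Gdf11, known to limit the pool of endocrine progenitors, fell by 2.29 ± 0.21. Over the list, 23 genes were higher and 9 lower than in GFP- cells. Of the 23 rises with age, 8 stayed under the table median at both ages.

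The EGF family ligands Hbegf and Btc and the receptors Egfr and Erbb4 rose. Of 36 FGF and EGF receptor pathway genes, 20 rose, 3 fell and 13 did not pass, with a median of 0.41, and 22 were higher and 3 lower than in GFP- cells. With p23 arrays 2 and 3 left out, 13 rose. Hbegf, a membrane-bound ligand of the EGF receptor, went from 7.81, 8.49 and 8.31 to 12.13, 12.11 and 11.99, a change of 3.87 ± 0.34 (adjusted p = 9.53e-07), with GFP- cells at 10.26, 10.47 and 8.85. The ligand Btc rose by 1.99 ± 0.21 and the receptor Erbb4 by 1.86 ± 0.34. Among receptors named after their values were seen, Egfr rose by 1.37 ± 0.16 with no call between the p23 sorts, and Fgfr3 rose by 1.55 ± 0.26 and was 2.84 ± 0.26 above GFP- cells. Etv1, a transcription factor induced by FGF signals, fell from 10.10, 10.53 and 10.19 to 7.86, 7.81 and 8.86, and the phosphatase Dusp4 fell by 1.66 ± 0.22. Etv1 was still above GFP- cells at 6.60, 5.57 and 6.18, whereas Dusp4 was below them, with a sort difference of -1.66 ± 0.22.

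Notch pathway genes showed Hes1 and the Notch feedback gene Nrarp on opposite courses. Of 34 tested, 7 rose, 13 fell and 14 did not pass, with a median of -0.07, and 12 were higher and 6 lower than in GFP- cells. Among all genes, 30.7% rose and 26.8% fell, and 21.5% were higher and 14.5% lower than in GFP- cells. Hes1, the repressor that Notch induces in duct progenitors, was at 9.07, 8.97 and 8.89 at e15.5 and 11.18, 11.25 and 11.72 at p23, a change of 2.41 ± 0.23 (adjusted p = 2.23e-06). Nrarp went from 10.01, 10.09 and 10.06 to 8.25, 8.58 and 9.16, a change of -1.39 ± 0.21 (adjusted p = 0.000125). Both were higher than in GFP- cells, by 1.88 ± 0.23 and 1.40 ± 0.21. The imprinted atypical ligand Dlk1 went from 10.64, 10.05 and 10.27 to 5.0, 5.32 and 5.26. Hes6 and Mfng fell by 1.18 ± 0.16 and 1.16 ± 0.20. The receptor Notch2, named after its value was seen, changed by 0.35 ± 0.20 and did not pass (adjusted p = 0.145), although the ages did not overlap.

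Wnt pathway genes gave 16 rises, 11 falls and 23 that did not pass among 50 tested, with a median of 0.05. Over all genes, 30.7% rose and 26.8% fell, so these shares were near those of any genes. Of the 16 rises, 5 stayed under the table median at both ages. After centring there were 10 rises and 15 falls with a median of -0.10. The 5 largest were all falls: the secreted inhibitor Frzb by 2.48 ± 0.51, the planar polarity genes Celsr3 and Vangl2 by 2.10 ± 0.21 and 1.15 ± 0.17, and the receptors Fzd2 and Fzd3 by 1.51 ± 0.28 and 1.13 ± 0.20. Frzb was at 7.08, 8.55 and 8.48 at e15.5 and 5.30, 5.57 and 5.8 at p23, so the ages did not overlap. Over the list 28 genes were higher and 1 was lower than in GFP- cells. The one lower, Lef1, named after its value was seen, was at 7.82, 8.18 and 7.90 in p23 Sox9-GFP+ cells against 12.14, 12.22 and 12.66 in GFP- cells, where leukocyte markers were also high.

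Nuclear receptors gave 18 rises, 6 falls and 14 that did not pass among 38 tested, with a median of 0.32, and 13 were higher and 5 lower than in GFP- cells. The vitamin D receptor Vdr was at 9.17, 9.25 and 9.16 at e15.5 and 6.76, 7.18 and 6.59 at p23, a change of -2.35 ± 0.18 (adjusted p = 1.80e-07). The retinoic acid receptor Rarb rose from 7.01, 7.04 and 7.28 to 8.86, 8.70 and 9.37 and was higher than in GFP- cells. Nr4a3, an immediate early gene, rose by 2.48 ± 0.27 and was below GFP- cells, with a sort difference of -1.45 ± 0.27 that was -0.85 without a call with p23 arrays 2 and 3 left out (adjusted p = 0.0801). The remaining large rises belonged to the circadian clock, where 11 of 20 genes rose, 4 fell and 5 did not pass, with a median of 0.52. After centring 7 rose, and with p23 arrays 2 and 3 left out 8 rose and 2 fell. The clock repressor Nr1d1 went from 7.33, 7.77 and 7.59 to 9.99, 11.24 and 11.22, a change of 3.25 ± 0.41, and Bhlhe40 from 7.05, 7.19 and 7.11 to 10.62, 10.88 and 10.62, a change of 3.59 ± 0.22. Rora and Nr1d2 rose by 2.52 ± 0.24 and 1.83 ± 0.22. Ciart fell by 1.59 ± 0.45, a call lost at an offset of 1 (adjusted p = 0.0809). In the clock list 12 genes were higher and 2 lower than in GFP- cells, and the hour at which animals were taken was not given in the sources used here.

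**Figure D3:**
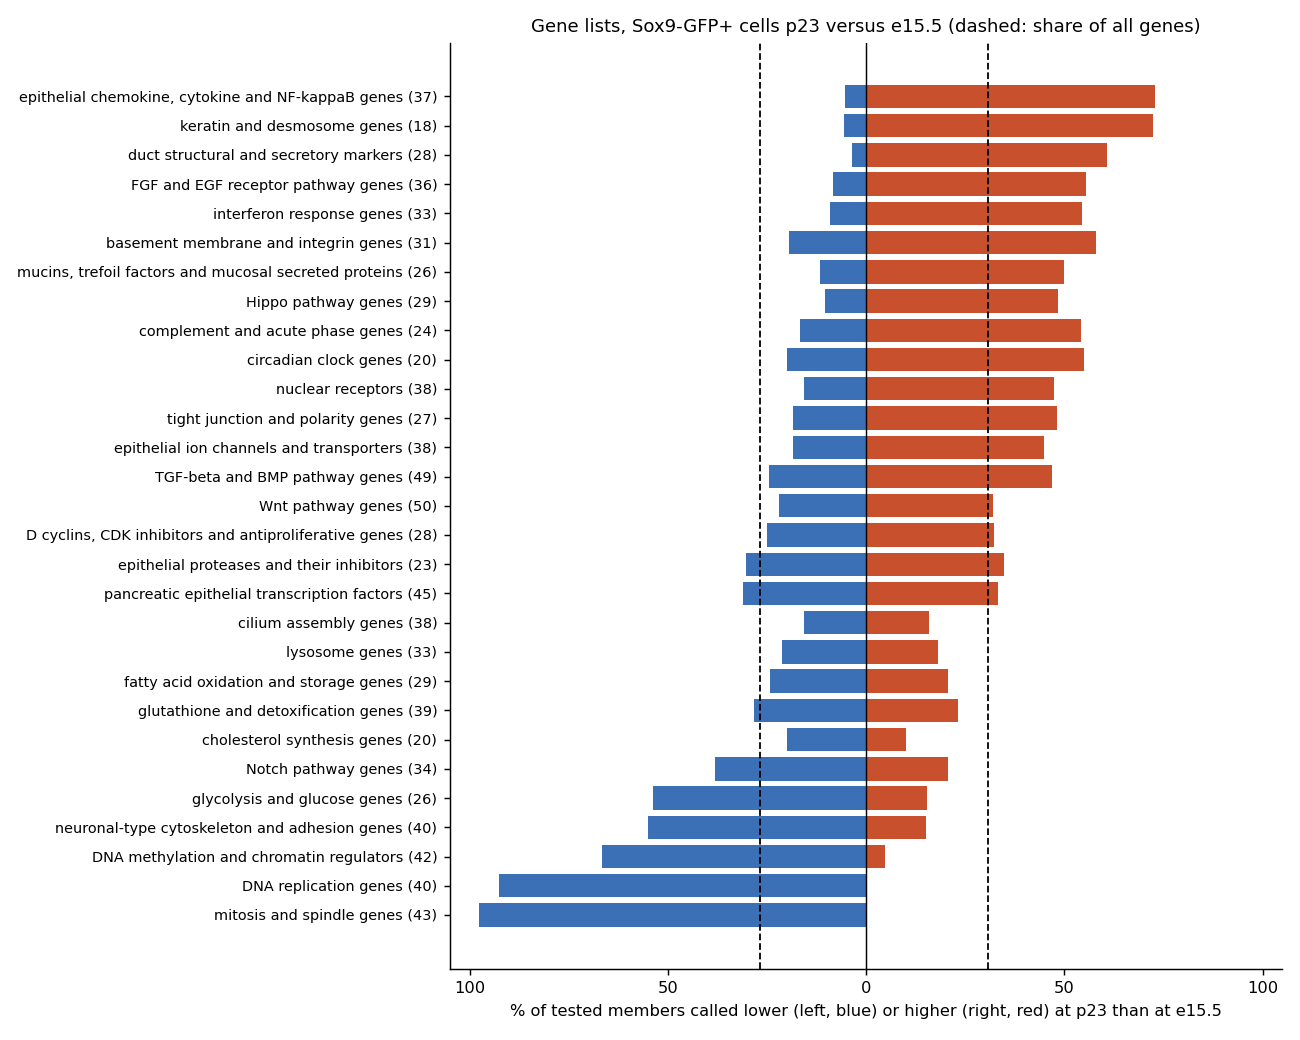
Share of the tested members of 29 gene lists that were called higher (red, to the right) or lower (blue, to the left) at p23 than at e15.5 in Sox9-GFP+ cells, with the number tested in brackets and the share over all genes, 30.7% higher and 26.8% lower, as dashed lines. Epithelial chemokine and NF-kappaB genes, keratins and duct markers had the largest shares of rises, and mitosis, DNA replication and chromatin genes the largest shares of falls.

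Inflammatory signals made up the pathway list with the largest share of rises. Of 37 chemokine, cytokine and NF-kappaB genes, 27 rose, 2 fell and 8 did not pass, with a median of 0.78, and 25 rose with p23 arrays 2 and 3 left out. Between the p23 sorts, 14 were higher and 7 lower in Sox9-GFP+ cells. The membrane-bound chemokine Cxcl16 went from 6.33, 6.93 and 7.05 to 11.03, 10.87 and 10.60, with GFP- cells at 8.70, 8.53 and 8.08. Tlr4, the receptor of bacterial lipopolysaccharide, went from 5.61, 5.54 and 5.97 to 9.81, 10.27 and 10.48, with GFP- cells at 7.77, 7.40 and 7.77. Their changes were 4.07 ± 0.25 and 4.48 ± 0.19, and both were highest in the p23 Sox9-GFP+ arrays. Cd14, the coreceptor of Tlr4 and here a member of the leukocyte list, rose by 3.65 ± 0.25 and was 2.45 ± 0.25 above GFP- cells, the one leukocyte marker called higher there. By contrast, the neutrophil chemokine Cxcl2 rose by 6.04 ± 0.39, Tnfaip3 by 3.56 ± 0.28 and Cxcl10 by 3.48 ± 0.53, with sort differences that did not pass. Cxcl2 was at 12.28, 10.42 and 10.55 at p23, highest in array 1. Which cells in the sort held these transcripts was not tested.

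Dissociation and immediate early genes moved the same way in the same arrays. Of 33 tested, 27 rose and none fell, against 30.7% and 26.8% of all genes, with a median of 1.42. Their summed intensity was 40800 to 55300 at e15.5, 112000 to 138000 at p23 and 76500 to 100000 in GFP- cells. The heat shock gene Hspa1a went from 5.38, 6.05 and 6.56 to 10.96, 10.16 and 11.25, while Zfp36 and Dusp1, which shut off inflammatory signals, rose by 2.84 ± 0.20 and 2.79 ± 0.22. Atf3 rose by 2.86 ± 0.79, a call lost with p23 arrays 2 and 3 left out (adjusted p = 0.0651). The labels state collagenase B and, where needed, trypsin for the dissociation, and do not state which age received trypsin. The part of dissociation in the rises of chemokine, Hippo target and clock genes was not tested.

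Interferon response genes rose but were lower than in GFP- cells. Of 33 tested, 18 rose, 3 fell and 12 did not pass, with a median of 0.60. Of the 18 rises, 7 stayed under the table median at both ages. Between the p23 sorts, 1 gene was higher and 22 were lower than in GFP- cells. The exception was Irf1, which went from 8.18, 8.69 and 8.34 to 11.61, 11.09 and 11.01, with GFP- cells at 9.89, 10.09 and 9.93, so that its p23 Sox9-GFP+ arrays lay above both other groups. Parp14 went from 6.49, 6.76 and 6.78 to 9.78, 9.88 and 10.02, a change of 3.22 ± 0.17, with GFP- cells at 10.28, 10.75 and 11.07. Ifit1, Xaf1 and Ifit3 rose by 2.10 ± 0.27, 2.10 ± 0.17 and 2.00 ± 0.26 and were below GFP- cells, with sort differences of -4.04 to -1.24. With p23 arrays 2 and 3 left out, 12 of the 33 were called higher and 2 lower, and after quantile normalization 17 and 1.

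The 537 genes that rose and were lower than in GFP- cells were headed by genes of leukocytes and interferon. The first 10 by the smaller difference were Ifi203, the MHC class II genes H2-Aa and Cd74, Ptprc, Sp100, Gimap4, Gbp9, Cd53, Gbp4 and the neuropeptide gene Gal. H2-Aa was at 6.79, 6.70 and 6.61 at e15.5, 8.12, 11.11 and 10.10 at p23, and 14.12, 14.24 and 14.40 for GFP- cells. Gimap4 was at 7.14, 7.01 and 7.06, then at 7.99, 10.59 and 10.93, and at 14.55, 14.68 and 14.98. In both, p23 arrays 2 and 3 were high and array 1 was not far above e15.5. The p23 arrays lay closer together for Gbp9, at 10.17, 10.33 and 10.72. Of 25 leukocyte markers, 19 rose and none fell, with a median of 0.81, 23 were lower than in GFP- cells, and 7 of the 19 stayed under the table median at both ages. The count of rises was 10 after quantile normalization and 9, with 1 fall, when p23 arrays 2 and 3 were left out. Csf1r, the receptor of macrophage growth factors, was even across the p23 arrays at 8.30, 8.40 and 8.16.

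Complement and acute phase genes gave 13 rises, 4 falls and 7 that did not pass among 24 tested, with a median of 0.42, and after quantile normalization 7 rises and 5 falls. Of the 13 rises, 7 stayed under the table median at both ages. Ceruloplasmin, Cp, the copper-carrying ferroxidase of plasma, was at 5.50, 6.49 and 6.08 at e15.5, 11.98, 11.75 and 12.23 at p23, and 8.98, 8.92 and 8.05 in GFP- cells. Its change was 5.96 ± 0.49 (adjusted p = 4.34e-07). The iron-chelating defence protein Lcn2 went from 7.01, 7.02 and 7.01 to 10.11, 10.06 and 11.50. Both were higher than in GFP- cells, by 3.33 ± 0.49 and 2.70 ± 0.33, whereas Itih4 rose by 3.32 ± 0.20 with a sort difference of -2.35 ± 0.20. C1s1 rose by 1.59 ± 0.32 and C1qa fell by 1.24 ± 0.22. Over the list, 5 genes were higher and 10 lower than in GFP- cells, beside 21.5% and 14.5% of all genes.

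Endocrine markers fell, and Neurog3, Isl1, Insm1 and Pax6 were among the 15 largest falls. Of 20 endocrine markers tested, 19 fell and 1 did not pass, with a median of -3.79, and 18 fell by at least 2-fold. Neurog3, the factor that commits progenitors to the endocrine fate, was at 12.12, 11.82 and 11.66 at e15.5 and 5.13, 5.25 and 5.06 at p23, a change of -6.72 ± 0.23 (adjusted p = 9.19e-11). GFP- cells were at 5.05, 5.31 and 5.10. The endocrine factors Insm1, Pax6, Neurod1 and Isl1 had changes of -5.08 ± 0.23, -4.97 ± 0.21, -4.81 ± 0.29 and -5.36 ± 0.27, and the potassium channel subunit of beta cells Abcc8 of -4.28 ± 0.20. Serpina6, which encodes the corticosteroid carrier of plasma, went from 12.77, 12.96 and 13.06 to 4.76, 5.03 and 5.93, a change of -7.69 ± 0.35 with all p23 arrays below the filter level, and of -8.50 at an offset of 1 and -6.50 at an offset of 64. Also among the 15 largest were Cer1, a secreted inhibitor of Nodal, by 5.58 ± 0.18, the potassium channel Kcnk16 by 5.35 ± 0.26, the gap junction gene Gjd2 by 5.33 ± 0.23 and Ctxn2 by 4.91 ± 0.37. Insulin, Ins2, named after its value was seen, fell less, from 11.59, 12.43 and 12.32 to 10.65, 10.70 and 10.39, and GFP- cells were at 11.97, 11.61 and 11.11.

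Peg10, Zdbf2, Igf2 and Dlk1, which are known as imprinted genes, were 4 of the same 15 falls, and no list of imprinted genes was tested. Peg10 and Zdbf2 went from 12.54, 12.91 and 12.69 to 7.53, 6.70 and 7.85 and from 10.82, 10.93 and 10.42 to 5.29, 5.69 and 5.50. Igf2, the fetal growth factor, went from 11.26, 10.70 and 11.04 to 5.41, 6.36 and 5.98, and Dlk1 is described above. In each of the 4, every GFP- array was at 7.14 or below. With them, the cell cycle inhibitor Cdkn1c, also imprinted, went from 11.55, 11.32 and 11.46 to 8.29, 8.34 and 8.07.

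Genes of neuronal type, which endocrine precursors share, fell alongside. Of 40 tested, 22 fell, 6 rose and 12 did not pass, with a median of -0.56, and 16 fell by at least 2-fold. With p23 arrays 2 and 3 left out, 16 fell and 2 rose. The neuronal tubulin Tubb3 went from 11.01, 11.03 and 10.71 to 5.75, 6.70 and 5.67, the neurofilament gene Nefl from 10.87, 11.18 and 10.97 to 6.10, 5.93 and 6.38, and Map1b from 11.52, 11.73 and 11.29 to 6.75, 7.80 and 6.86. None overlapped between the ages, like 72.7% of all genes. Nefm and Celf3 had changes of -4.34 ± 0.32 and -3.81 ± 0.26. The exception in size was Dclk1, a kinase known from tuft cells and named after its value was seen, which rose from 6.97, 6.99 and 6.88 to 9.53, 10.70 and 10.18 and was 2.94 ± 0.24 above GFP- cells. In the list 13 genes were higher and 3 lower than in GFP- cells. Glial and neural crest markers gave 4 falls and 2 rises among 8 tested, with a median of -0.29. S100b, Ret and Fabp7 fell by 2.93 ± 0.40, 2.90 ± 0.16 and 2.47 ± 0.56, Gfra3 by 0.60 ± 0.19, while Ngfr rose by 0.56 ± 0.12. The call of Gfra3 was lost without e15.5 array 1 (adjusted p = 0.0517).

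Transcription factors of the pancreatic epithelium gave 15 rises, 14 falls and 16 that did not pass among 45 tested, with a median of 0.11, beside rises of 30.7% and falls of 26.8% over all genes, and 24 were higher and 6 lower than in GFP- cells. Sox11, Rfx6, Nkx6-1, Pdx1 and Ptf1a were among the falls. Sox11 went from 12.27, 11.67 and 11.43 to 7.30, 6.82 and 6.60, the endocrine factor Rfx6 fell by 4.77 ± 0.23, and Nkx6-1, a factor of the trunk epithelium and of beta cells, went from 10.79, 10.56 and 10.51 to 6.89, 6.98 and 8.12. GFP- cells were lower still for Nkx6-1, at 5.86, 5.07 and 5.24. Of factors named after their values were seen, Pdx1 fell by 1.54 ± 0.21 and the acinar factor Ptf1a by 1.85 ± 0.31. Onecut2, a relative of the duct factor Onecut1, rose from 6.53, 6.91 and 6.84 to 8.77, 9.22 and 8.56. The epithelial factors Ehf, Klf5 and Elf3 and the progenitor factors Hhex and Gata6, also named after their values were seen, rose by 1.86 ± 0.35, 2.01 ± 0.32, 1.64 ± 0.33, 1.06 ± 0.23 and 0.70 ± 0.17, and each of these was higher than in GFP- cells. Onecut1 and Prox1 changed by 0.05 ± 0.19 and 0.44 ± 0.18 and did not pass, the sign for Onecut1 turning when arrays were centred on their median, and they were 3.15 ± 0.19 and 4.01 ± 0.18 above GFP- cells. For Prox1 the ages did not overlap.

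Cell division genes fell. Of 43 mitosis and spindle genes tested, 42 fell and none rose, with a median of -1.70, and 38 fell by at least 2-fold. The mitotic kinase Plk1 was at 10.94, 10.79 and 11.08 at e15.5, 7.63, 8.17 and 8.51 at p23, and 8.06, 7.64 and 8.62 for GFP- cells. Its change was -2.84 ± 0.28 (adjusted p = 2.78e-06), and the p23 sorts overlapped. The spindle checkpoint genes Bub1b and Bub1 had changes of -2.54 ± 0.25 and -2.38 ± 0.24, the kinesin Kif2c of -2.43 ± 0.21 and the ubiquitin-conjugating enzyme Ube2c of -2.37 ± 0.26. Mki67, named after its value was seen, fell less, by 0.99 ± 0.12. Between the p23 sorts 7 genes were higher and 2 lower in Sox9-GFP+ cells, shares below the 21.5% and 14.5% over all genes.

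The promoters of Plk1, Bub1b and Ube2c are shown because each holds both elements typical of genes expressed in mitosis, the CCAAT box and the cell cycle homology region TTTGAA, in capitals on either strand (CCAAT reads ATTGG and TTTGAA reads TTCAAA on the other). The windows are again 250 bases before to 50 after the RefSeq start in GRCm38.p6, all on the plus strand, at chr7:122159185-122159484 for Plk1, chr2:118597961-118598260 for Bub1b and chr2:164769679-164769978 for Ube2c.
Plk1: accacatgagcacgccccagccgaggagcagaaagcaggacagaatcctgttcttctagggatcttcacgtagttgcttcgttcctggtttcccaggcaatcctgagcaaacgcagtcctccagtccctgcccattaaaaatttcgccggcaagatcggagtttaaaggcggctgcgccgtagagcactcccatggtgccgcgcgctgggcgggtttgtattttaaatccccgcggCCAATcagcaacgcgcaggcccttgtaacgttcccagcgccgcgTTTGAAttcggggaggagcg
Bub1b: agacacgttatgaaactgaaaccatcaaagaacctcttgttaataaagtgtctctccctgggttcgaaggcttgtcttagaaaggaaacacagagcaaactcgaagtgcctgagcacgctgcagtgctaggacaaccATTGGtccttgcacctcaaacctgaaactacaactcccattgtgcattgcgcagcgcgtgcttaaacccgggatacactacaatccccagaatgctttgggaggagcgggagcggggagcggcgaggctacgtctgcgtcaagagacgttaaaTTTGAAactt
Ube2c: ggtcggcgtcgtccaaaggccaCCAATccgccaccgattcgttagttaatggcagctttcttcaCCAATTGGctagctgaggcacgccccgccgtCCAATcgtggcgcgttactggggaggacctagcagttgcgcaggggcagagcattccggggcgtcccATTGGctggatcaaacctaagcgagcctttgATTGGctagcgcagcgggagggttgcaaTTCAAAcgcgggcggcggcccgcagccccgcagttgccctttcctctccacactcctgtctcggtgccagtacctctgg
Both elements were present in 25 of 38 promoters of 35 matched mitosis genes, or 65.8%, against 5.12% of the promoters of tested genes, 6.95% of all promoters and 7.69% of those of the DNA replication list. The windows of Bub1 and Kif2c, also among the 5 largest falls, held the CCAAT box alone and the homology region alone. The elements shared a base in 1 of the mitosis promoters, and a match describes letters only.

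DNA replication genes fell in near equal number and by less. Of 40 tested, 37 fell and none rose, with a median of -1.04, and 20 fell by at least 2-fold. The ribonucleotide reductase subunit Rrm2 went from 10.45, 10.28 and 10.48 to 7.68, 7.99 and 8.69, a change of -2.28 ± 0.23, with GFP- cells at 9.33, 8.90 and 9.51. Fen1, Cdc7, Cdc6 and Rfc4 had changes of -1.49 ± 0.16, -1.47 ± 0.16, -1.39 ± 0.29 and -1.38 ± 0.15. Mcm2, a subunit of the replicative helicase named after its value was seen, went from 9.88, 9.69 and 9.87 to 8.69, 8.47 and 8.83. Pcna, named in the same way, changed by -0.21 ± 0.12 and did not pass, although the ages did not overlap. In this list 14 genes were higher and 4 lower than in GFP- cells.

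D cyclins, CDK inhibitors and antiproliferative genes were mixed. Of 28 tested, 9 rose, 7 fell and 12 did not pass, with a median of 0.04. These counts stand beside rises of 30.7% and falls of 26.8% over all genes. After centring 4 rose and 12 fell, and with p23 arrays 2 and 3 left out 4 rose and 7 fell. Gadd45b, a stress sensor, rose from 7.37, 8.05 and 8.27 to 11.60, 10.85 and 11.07, and Trp53inp1, Btg1 and Btg2 rose by 1.80 ± 0.21, 1.59 ± 0.38 and 1.46 ± 0.15, of which Btg1 lost its call with p23 arrays 2 and 3 left out (adjusted p = 0.0529). The fall of Cdkn1c, by 3.21 ± 0.15, was the largest of the list. Among the kinases and cyclins, named after their values were seen, Cdk4 fell by 1.15 ± 0.12, and Ccnd1 changed by 0.62 ± 0.39 without passing while standing 2.89 ± 0.39 above GFP- cells. Ccnd1 was at 11.33, 11.22 and 11.20 at e15.5 and 11.78, 11.76 and 12.06 at p23, so the ages did not overlap. Its standard error was that of the fit over all 5 groups. Between the p23 sorts 6 genes were higher and 7 lower, beside 21.5% and 14.5% of all genes.

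Chromatin regulators fell with the division genes. Of 42 DNA methylation and chromatin genes, 28 fell, 2 rose and 12 did not pass, with a median of -0.53, and 18 fell with p23 arrays 2 and 3 left out. The fetal chromatin protein Hmga2 went from 10.64, 10.10 and 10.10 to 6.57, 6.58 and 6.76, a change of -3.64 ± 0.18 (adjusted p = 2.30e-09). The chromatin remodeller Smarca1 went from 10.65, 11.15 and 10.98 to 8.03, 8.01 and 8.73. The ages did not overlap for either gene, as for 72.7% of all genes. Both stayed above GFP- cells, by 1.00 ± 0.18 and 2.19 ± 0.18. The nucleosome-binding protein Hmgn3 and the histone methyltransferase Suv39h2 had changes of -2.09 ± 0.26 and -1.89 ± 0.18, and Uhrf1, which guides maintenance methylation, of -1.28 ± 0.30. The call of Uhrf1 was lost with p23 arrays 2 and 3 left out (adjusted p = 0.0731). The DNA methyltransferases Dnmt3a and Dnmt1, named after their values were seen, fell by 1.12 ± 0.10 and 0.52 ± 0.11. In the list 19 genes were higher and 4 lower than in GFP- cells.

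**Figure D4:**
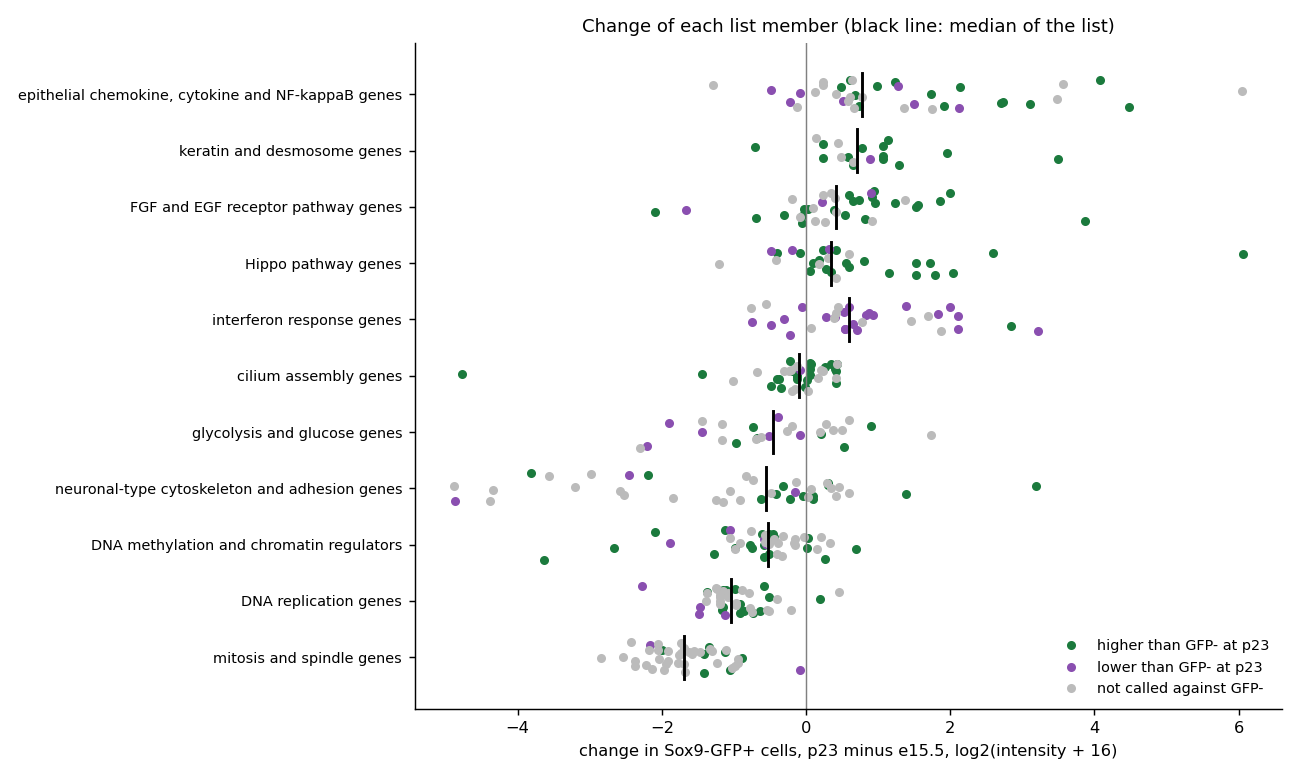
Change from e15.5 to p23, in units of log2(intensity + 16), of each tested member of 11 gene lists, coloured by whether the member was called higher than in GFP- cells at p23 (green), lower (purple) or neither (grey), with the list median as a black line. Risen Hippo and keratin genes were mostly green, interferon genes mostly purple, and the mitosis list, with a median of -1.70, mostly grey.

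Glycolysis enzymes fell more often than they rose. In glycolysis and glucose handling, 14 of 26 genes fell, 4 rose and 8 did not pass, with a median of -0.46. Against GFP- cells, 6 were higher and 6 lower, beside 21.5% and 14.5% of all genes. After centring, and likewise with p23 arrays 2 and 3 left out, 2 rose. The pyruvate kinase Pkm went from 11.26, 11.07 and 11.15 to 8.93, 9.47 and 9.37, and the lactate dehydrogenase Ldha from 11.30, 11.24 and 11.40 to 9.68, 9.92 and 9.99, with changes of -1.90 ± 0.15 and -1.45 ± 0.13. The glucose transporter Slc2a3 fell by 2.21 ± 0.23 and the islet phosphatase G6pc2 by 2.30 ± 0.41, while the phosphofructokinase Pfkp rose by 1.73 ± 0.25. Pkm, Ldha and Slc2a3 were also lower than in GFP- cells.

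In glutathione and detoxification, 9 of 39 genes rose, 11 fell and 19 did not pass, with a median of -0.06, and 11 were higher and 7 lower than in GFP- cells. By age, 30.7% of all genes rose and 26.8% fell, and 21.5% were higher and 14.5% lower than in GFP- cells. The largest changes were falls. Mgst2, a microsomal glutathione transferase, was at 9.69, 9.63 and 9.56 at e15.5, 5.72, 7.50 and 6.32 at p23, and 10.13, 10.27 and 10.95 in GFP- cells. The glucuronosyltransferase Ugt2b34, the aldehyde dehydrogenase of pancreatic progenitors Aldh1b1 and the glutathione peroxidases Gpx2 and Gpx3 had changes of -3.06 ± 0.31, -2.66 ± 0.33, -2.60 ± 0.39 and -1.90 ± 0.16.

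Fatty acid genes were mixed, with 6 rises and 7 falls among 29 tested and a median of 0.10. The shares over all genes were 30.7% for rises and 26.8% for falls. The fatty acid binding proteins Fabp3 and Fabp5 and the carnitine palmitoyltransferase Cpt2 had changes of -2.14 ± 0.20, -1.66 ± 0.19 and -1.35 ± 0.16. Fabp4 and Lpl rose by 3.10 ± 0.31 and 1.90 ± 0.35 and were below GFP- cells, with sort differences of -1.84 ± 0.31 and -1.75 ± 0.35, and the list held 11 genes higher and 4 lower than there. Cholesterol synthesis genes moved least, with 2 rises and 4 falls among 20 tested, a median of -0.09, and changes from -0.76 to 0.83. The falls were 1 after quantile normalization and 2 with p23 arrays 2 and 3 left out. The HMG-CoA synthase Hmgcs1 rose by 0.83 ± 0.12, and 7 genes of the list were higher and none lower than in GFP- cells. The calls of Cyp51, Dhcr7 and Sqle were each lost in at least 1 alternative, and Tm7sf2 fell by 0.64 ± 0.18.

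Lysosome genes gave 6 rises and 7 falls among 33 tested, with a median of -0.09, and 4 rises and 11 falls after centring. Before centring, 30.7% of all genes rose and 26.8% fell. The hydrolases Hexa and Gusb and the cathepsin Ctsf fell by 2.03 ± 0.20, 1.46 ± 0.16 and 1.42 ± 0.21. The cathepsins Ctss and Ctsh rose by 1.59 ± 0.23 and 1.44 ± 0.23. Ctss was at 8.68, 8.85 and 9.0 at p23 and at 13.13, 13.47 and 13.66 in GFP- cells, where leukocyte markers were high, and 5 genes of the list were higher and 11 lower than there.

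The primary cilium is a sensor of flow on duct cells. Of 38 cilium assembly genes, 6 rose, 6 fell and 26 did not pass, with a median of -0.10, while 23 were higher and 1 lower than in GFP- cells. The median was 0.02 after quantile normalization. After centring 1 rose and 8 fell with a median of -0.25, and with p23 arrays 2 and 3 left out 3 rose and 8 fell. The falls were led by the regulators Rfx6 and Rfx3, at -4.77 ± 0.23 and -1.45 ± 0.15. Rfx6 is known as an endocrine factor, and Rfx3 as a regulator of ciliary genes. The transport proteins Ift27 and Ift52 fell by 1.02 ± 0.20 and 0.68 ± 0.13. The transition zone gene Tmem67 fell by 0.49 ± 0.15, a call lost after quantile normalization (adjusted p = 0.0686). Ift88, a core transport protein named after its value was seen, was at 9.71, 9.64 and 9.65 at e15.5, 10.08, 9.88 and 10.11 at p23, and 7.74, 8.12 and 8.12 in GFP- cells. The call of its small rise was lost after centring (adjusted p = 0.222). It was also lost without p23 array 1 or 3 (adjusted p = 0.0733 and 0.0663) and without e15.5 array 2 or 3 (adjusted p = 0.0687 and 0.0644).

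Genes that fell with age divided by the GFP- mark into 1015 that were also lower than in GFP- cells and 774 that remained higher. The first 10 of those that remained higher, by the smaller difference, were the growth factor Mdk, Smarca1, Rprm, Etv1, Nkx6-1, Rims2, Steap2, Syt17, Nudt11 and Khdrbs3. Mdk went from 12.04, 11.58 and 11.69 to 9.15, 8.73 and 9.24, with GFP- cells at 6.71, 6.18 and 6.03, so the 3 groups were in order without overlap. Rprm, a gene that halts cells before mitosis, was at 10.87, 10.85 and 10.88 at e15.5 and 7.03, 10.20 and 9.16 at p23, the arrays of p23 differing by more than 3 log2 units. The first 10 of those lower than in both e15.5 and GFP- cells were Mgst2, Rnf145, Prkcb, the amino acid transporter Slc38a5, Cacnb2, Emb, Dock11, A1cf, Tspan5 and the calcium pump Atp2a3. Prkcb went from 8.94, 9.06 and 8.91 to 5.83, 6.73 and 6.30, with GFP- cells at 9.77, 9.76 and 10.33, and Slc38a5 from 11.30, 11.33 and 11.25 to 7.41, 8.36 and 8.40, with GFP- cells at 10.91, 10.82 and 10.47. In both, the p23 Sox9-GFP+ arrays were the lowest of the 3 groups. This, like the order of the groups for Mdk, follows largely from how the genes were ranked.

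Markers of other cell types were tested in the same way. Of 20 endothelial markers, 17 rose and 1 fell, with a median of 0.49, but 15 of the 17 were under the table median at both ages, and the count was 7 after quantile normalization, 11 after centring and 10 with p23 arrays 2 and 3 left out. Pecam1 went from 6.22, 6.50 and 6.54 to 7.38, 8.32 and 7.61, with GFP- cells between 10.38 and 10.80, and Cdh5 and Emcn rose by 1.26 ± 0.26 and 1.25 ± 0.19. None of the 20 was higher and 12 were lower than in GFP- cells. Mesenchymal and stellate markers gave 6 rises and 1 fall among 19, with a median of 0.03 and 9 lower and 2 higher than in GFP- cells, and 3 falls after centring. Their share of rises was near the 30.7% over all genes. The pericyte gene Rgs5 was an outlying member, from 6.61, 7.63 and 7.90 to 11.35, 11.14 and 11.59, a change of 3.98 ± 0.39. Mfap4 fell by 1.85 ± 0.37, Postn and Tagln rose by 1.34 ± 0.29 and 0.93 ± 0.25, and the call of Dcn was lost in several alternatives, median centring among them (adjusted p = 0.136). Among 7 erythroid markers tested, Epb42 fell by 2.26 ± 0.24 and Epor rose by 0.44 ± 0.12, with a list median of 0.10.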

How the data were processed

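Gene expression was measured on Affymetrix mouse gene arrays, of which 9 of 15 bear on the comparisons here. The authors deposited linear intensity values per probe set, and the submitters' processing notes list the PLIER method and Affymetrix Expression Console 1.1. No source used here gives whether arrays were normalised to each other. Of 35557 probe sets, 21789 carry 1 gene symbol, 1621 several and 12147 none, and only the first were named. Each of 19938 genes was represented by its probe set of highest mean across all arrays. Values were taken as log2(intensity + 16), and the 16883 genes above an intensity of 97.8, the 30th percentile, in at least 3 arrays were tested. limma 3.58.1 (R 4.3.3) fitted all 5 groups of the series without further normalization, and genes with a Benjamini-Hochberg adjusted p below 0.05 were called. Summaries and plots used Python 3.11.15, numpy 2.4.6, pandas 2.3.3 and matplotlib 3.10.9.

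Genes were named by rule: Sox9, the 15 largest rises and falls whose arrays do not overlap and whose higher mean lies above the table median, the 10 leading genes of each class by age and sort, and up to 5 called members of each of 29 pathway and 8 marker lists. Other named genes were chosen after their values were seen. The members and lists were chosen with earlier results of these data known. No arrays were identical. Tested on simulated data with 16883 genes, the comparison of ages recovered 26.9% of planted 1.5-fold, 73.1% of 2-fold and 97% of 4-fold changes, with 5 false calls, and that of sorts 35.8%, 79.1% and 100%, with 12 false calls. Each simulation planted 67, 67 and 66 changes of these sizes, with noise independent between genes. In the data, 57.5% of genes were called between the ages and 36% between the sorts. The simulated shares and false calls thus check the code and do not carry over to the data. Alternatives changed the normalization, offset, filter, probe set rule, arrays fitted, variance model, array weights, replicate block and threshold, and left out each array. The removal of p23 Sox9-GFP+ arrays 2 and 3 together was added after seeing the data. The number of arrays limits the precision. Promoters are those of RefSeq on GRCm38.p6.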

Additional observations from a re-analysis of the deposited data

How the results depend on the processing

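Against a 1.5-fold threshold (limma treat), 616 genes were higher and 999 lower at p23 than at e15.5, and 1267 were higher and 783 lower in Sox9-GFP+ than in GFP- cells. With the filter at the table median, which tests fewer genes, 3172 were higher at p23. With p23 Sox9-GFP+ arrays 2 and 3 left out, an alternative chosen after seeing the data in which the 1 array left is assumed to vary like the other groups, 2322 genes were higher in Sox9-GFP+ than in GFP- cells. Leaving out 1 array at a time gave 3934 to 5246 higher and 3578 to 4665 lower genes by age, and 3033 to 3321 higher and 2022 to 2420 lower between the sorts. The other alternatives kept these counts within 1.5 times, from 3561 (median centring) to 7271 (array weights) higher by age.

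With the replicate block, 4832 genes were higher and 4292 lower by age, and 3433 higher and 2304 lower between the sorts. Deviations of same-numbered arrays correlated at 0.158, 0.0293 and 0.198 between the ages and at 0.108, -0.121 and -0.0254 between the sorts, so the numbers were not taken as pairs, although each p23 array correlated best with its own number at e15.5.

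Of 220 genes named by rule, 210 kept their call between the ages, and 119 of the 152 with a call between the p23 sorts kept that call, in all alternatives other than the 1.5-fold threshold that were run on them. With only the 2 compared groups in the fit, 4 of the genes named after their values were seen gained a call between the ages. The sign reversed for 3 genes that did not pass the test. Onecut1 changed by -0.10 with median centring, -0.030 with array weights and -0.017 without p23 array 3. Yap1 changed by -0.10 with median centring, -0.062 with array weights, -0.013 without p23 array 3 and -0.016 without e15.5 array 2, with a range of -0.016 to 0.15 over the arrays left out in turn. Id2 changed by -0.044 with median centring, -0.028 without p23 array 3 and -0.14 with p23 arrays 2 and 3 left out, with a range of -0.028 to 0.24 over the arrays left out in turn. The cause was not tested. Genes whose signal lies near background at both ages can be read only as dim.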
